A study of Mus musculus with 15 samples.

Results

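Epithelial membrane protein 1 (Emp1) and its 3 closest relatives, Emp2, Emp3 and Pmp22, were followed through a knockdown of Smarcb1 in mouse embryonic stem cells (mESC). SMARCB1 is part of the BAF complexes, which move nucleosomes. All 4 genes were found among the 55228 genes listed for each library. Emp1 was chosen by its measured knockdown log2 changes in these libraries, as the transcript with the strongest fall shared by all 3 knockdown times, so its knockdown values are given as a description and without a test. Emp2, Emp3 and Pmp22 were taken by family, to see whether they rise where Emp1 is lost. Earlier results of these data were known at that point, and the minimum of 3 reads for testing these relatives was set after their values were seen.

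Transcripts were measured by RNA-seq in 15 libraries of the line 81K1 (based on OG2), in which an shRNA against Smarcb1 sits in the Rosa26 locus and is expressed when doxycycline is given. Cells without doxycycline (ctrl) were taken at 48 h and at 240 h. Cells given 1 µg doxycycline per ml medium each day (kd) were sampled at 48 h, 72 h and 240 h, with 3 libraries in each of the 5 groups. All cells, ctrl included, carry the shRNA cassette and were grown with LIF on gelatine. The 72 h kd libraries were compared with 48 h ctrl, so the 48 h and 72 h comparisons share their controls. An effect of doxycycline alone on transcript levels was not analysed here. Labels do not say whether the 3 libraries of a group came from separate cultures, so the p-values measure only the spread between these libraries.

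Smarcb1 itself had 18.0% (48 h), 15.7% (72 h) and 19.3% (240 h) of its control level, without overlap of kd and ctrl libraries. Library totals were between 11074998 and 14515300 reads. The 6 embryonic stem cell markers examined (Pou5f1, Nanog, Sox2, Esrrb, Zfp42 and Dppa5a) were present in every library, and their summed level was 3854 to 5592 RPM (reads scaled to the library total), lowest in 240 h kd. The share of mitochondrial reads was highest in 48 h kd replicate 2, at 2.53%. Without it the log2 change of Emp1 at 48 h was -2.69 on log2 FPKM, and of the 10 list and neighbour genes named below as called at 48 h, 8 were called, all but Ntn5 and Sult2b1 (limma voom adjusted p = 0.107 and 0.0547).

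PMP22 and the EMP proteins are small membrane proteins that cross the membrane several times, and they belong to a wider superfamily with the claudins, the sealing proteins of tight junctions. PMP22 is best known as a protein of compact peripheral myelin whose gene dosage has to be kept tight, since both a duplication and a deletion of the gene cause neuropathy. The EMP proteins are found mainly in epithelia. They have been linked to cell contact, integrins and caveolae, and EMP1 is used as a squamous and epithelial differentiation marker.

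The 4 genes lie on separate chromosomes and overlap no other listed gene. In GRCm38 (mm10), Emp1 (ENSMUSG00000030208.15) spans 135362545 to 135383173 on the plus strand of chromosome 6. Emp2 (ENSMUSG00000022505.9) spans 10281749 to 10313968 on the minus strand of chromosome 16. Emp3 (ENSMUSG00000040212.12) spans 45918023 to 45921404 on the minus strand of chromosome 7, and Pmp22 (ENSMUSG00000018217.12) spans 63128982 to 63159547 on the plus strand of chromosome 11. Exons make up 28.8% of the Emp1 span, 26.8% of Emp2, 31.7% of Emp3 and 7.70% of Pmp22. These shares matter here because the deposited FPKM values divide the reads by the whole span, introns included, so that Pmp22 looks lower than it would per exonic base.

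The 250 bases before the RefSeq start that lies farthest upstream are shown for each gene (GRCm38.p6, read 5′ to 3′ on the strand of the gene), to set these windows of the family side by side. For Emp1 this RefSeq start lies 386 bases downstream of the GENCODE start of the span given above, so the Emp1 window is inside the span and not upstream of it. For Emp3 it lies 22 bases upstream of the GENCODE start, and for Emp2 and Pmp22 both starts are the same base. Capitals mark every match, on either strand, to 4 short motifs. The AP-1 motif was searched as TGANTCA and the motif of the TEAD factors as GGAATG. The TATA box was searched as TATAAA. For the GC box the letters searched were GGGCGG. A further motif, the E-box (CANNTG), was searched but is not marked. The windows are chr6:135362681-135362930 on the plus strand for Emp1, chr16:10313969-10314218 on the minus strand for Emp2, chr7:45921427-45921676 on the minus strand for Emp3 and chr11:63128732-63128981 on the plus strand for Pmp22.
Emp1: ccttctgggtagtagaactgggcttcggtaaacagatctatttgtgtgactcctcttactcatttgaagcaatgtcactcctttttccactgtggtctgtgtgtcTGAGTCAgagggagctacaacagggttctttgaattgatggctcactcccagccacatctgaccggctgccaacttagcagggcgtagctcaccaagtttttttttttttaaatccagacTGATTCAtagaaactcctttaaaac
Emp2: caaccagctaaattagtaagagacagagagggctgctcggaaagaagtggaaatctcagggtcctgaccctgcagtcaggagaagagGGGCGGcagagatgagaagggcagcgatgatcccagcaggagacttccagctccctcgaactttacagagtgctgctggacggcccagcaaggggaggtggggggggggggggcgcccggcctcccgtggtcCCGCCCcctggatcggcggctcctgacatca
Emp3: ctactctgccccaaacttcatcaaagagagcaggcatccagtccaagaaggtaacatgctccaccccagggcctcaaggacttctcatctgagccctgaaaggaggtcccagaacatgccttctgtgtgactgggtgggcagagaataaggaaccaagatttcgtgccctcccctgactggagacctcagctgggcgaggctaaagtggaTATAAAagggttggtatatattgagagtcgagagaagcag
Pmp22: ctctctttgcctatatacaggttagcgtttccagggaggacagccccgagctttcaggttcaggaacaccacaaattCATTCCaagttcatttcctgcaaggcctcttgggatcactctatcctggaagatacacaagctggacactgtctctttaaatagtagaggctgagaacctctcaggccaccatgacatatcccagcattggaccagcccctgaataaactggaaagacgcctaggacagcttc

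The Emp1 window holds the AP-1 letters at 2 places, starting 145 and 25 bases before the start, and none of the other 3 marked motifs. Among the 32851 promoters in the same table, 6.75% hold these letters at least once and 0.338% at 2 or more places. Emp2 has 2 GC boxes (32.7% of promoters have at least 1) and a GC content of 62.8%, against a median of 52.4% over all promoters. The Emp3 window has 1 TATA box, 40 bases before the start (12.4% of promoters), and the Pmp22 window 1 TEAD motif (12.6%). The unmarked E-box letters occur at 2 places each in the Emp1 and Emp3 windows and at 0 in those of Emp2 and Pmp22 (66.2% of promoters hold them). The motifs were chosen after the Emp1 window had been read, and a match only says that the letters are there. Emp1 and Emp3 have 1 further start in the table and Pmp22 has 3, and the windows before these hold no AP-1 letters. The windows before Pmp22 starts 2 and 4, counted from upstream, hold 3 GC boxes each. The GC content before Pmp22 starts 2, 3 and 4 is 61.2%, 64.8% and 73.6%, against 48.8% in the Pmp22 window shown. Which start was used in these cells was not measured.

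In the control cells the family was mostly Emp1. Its FPKM was 2.26, 2.61 and 2.58 in the 48 h ctrl libraries and 2.50, 2.34 and 2.44 in 240 h ctrl, from 594 to 645 reads each. On doxycycline it was 0.358, 0.293 and 0.250 at 48 h (57 to 85 reads), 0.0985, 0.106 and 0.102 at 72 h (26 to 28 reads), and 0.129, 0.0935 and 0.139 at 240 h (28 to 39 reads). All 9 kd libraries lay below all 6 ctrl libraries. This left 12.1% (48 h), 4.11% (72 h) and 4.96% (240 h) of the control mean. Most of the change was thus in place at 48 h, and the 72 h kd libraries had 34.0% of the 48 h kd level without overlap.

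Between the untreated groups Emp1 did not differ beyond the spread of the libraries. The log2 change of 240 h ctrl against 48 h ctrl was -0.03 (SE 0.07, 95% interval -0.19 to 0.13, limma adjusted p = 0.801). A change on the log2 scale is called here when the adjusted p-value is under 0.05 and its size is above 0.58.

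**Figure D1:**
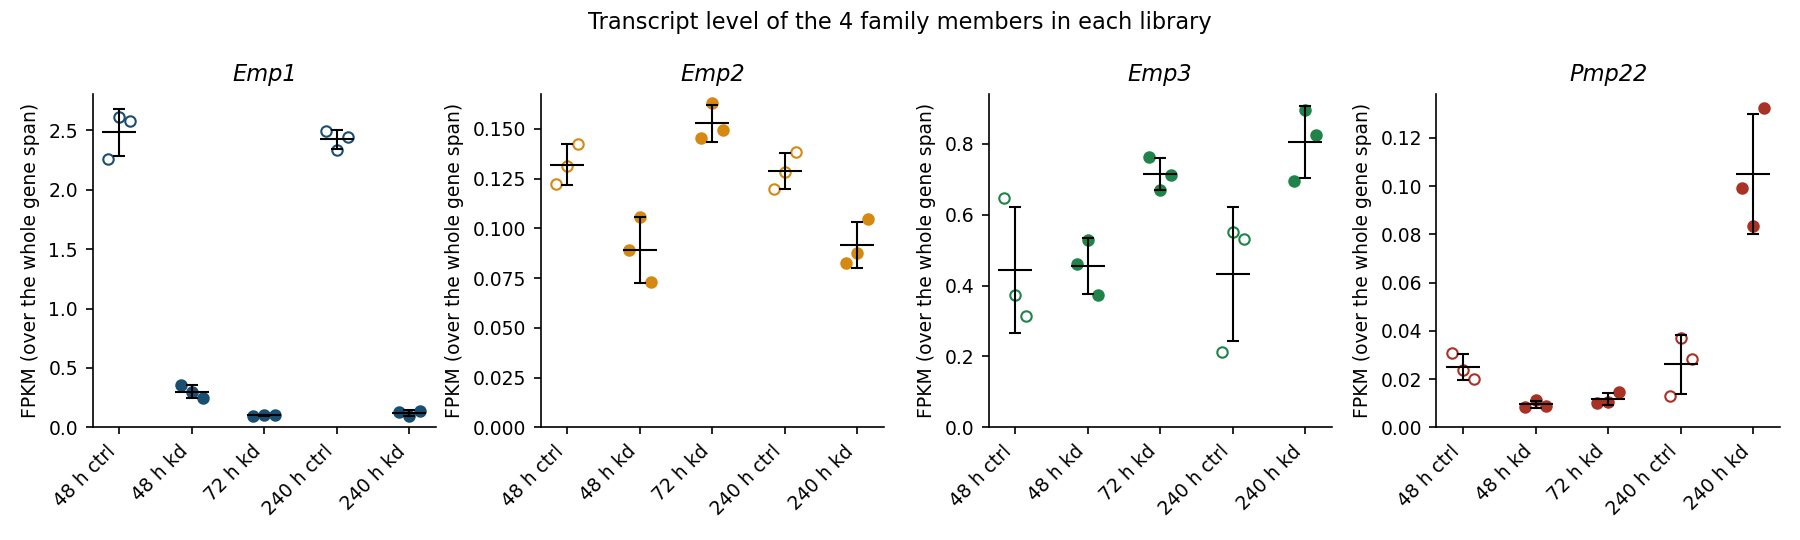
FPKM of the 4 genes in each library, open circles for ctrl and filled circles for kd, with the mean as a bar and the SD as whiskers (n = 3). Each panel has its own axis from 0: Emp1 is low in all 9 kd libraries, Emp2 is lower in kd at 48 h and 240 h, Emp3 is higher at 72 h and 240 h, and Pmp22 is high only in 240 h kd.

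Levels of different genes were compared as RPM, divided by the exonic kilobases of the gene, which takes all reads of a gene as exonic. In 48 h ctrl the order was Emp1 with 8.64 ± 0.685, Emp3 with 1.40 ± 0.561, Emp2 with 0.492 ± 0.0380 and Pmp22 with 0.324 ± 0.0716 (SD, n = 3), with no overlap between neighbours. The order in 240 h ctrl was the same, but Emp2 (0.480 ± 0.0344) and Pmp22 (0.340 ± 0.158) overlapped there. In 48 h kd Emp3 (1.44 ± 0.247) and Emp1 (1.04 ± 0.189) overlapped at the top. At 72 h the order was Emp3 (2.26 ± 0.146), Emp2 (0.570 ± 0.0348), Emp1 (0.355 ± 0.0130) and Pmp22 (0.154 ± 0.0329), again without overlap. In 240 h kd Pmp22 had moved to the second place (1.36 ± 0.323), behind Emp3 (2.54 ± 0.322) and ahead of Emp1 (0.418 ± 0.0827) and Emp2 (0.342 ± 0.0437), which overlapped.

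Emp3 was tested next, as the relative with the highest level per length. EMP3 is a glycoprotein found in many cell types and known from studies of brain tumours. Its FPKM at 48 h was 0.647, 0.373 and 0.313 without and 0.462, 0.530 and 0.374 with doxycycline, and these groups overlapped. At 72 h kd it was 0.762, 0.670 and 0.713. At 240 h it was 0.214, 0.552 and 0.531 in ctrl and 0.695, 0.896 and 0.825 in kd. The 72 h and 240 h kd libraries therefore all lay above their controls, at 161% and 186% of the control mean, but from only 9 to 44 reads per library.

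With limma on log2(FPKM + 0.1), Emp3 was not called at either time. It reached the minimum mean of 0.5 FPKM of that fit only through its kd libraries, since the ctrl means were 0.444 at 48 h and 0.432 at 240 h, so the change itself decided whether it was tested. At 72 h the log2 change was 0.63 with an SE of 0.23 (adjusted p = 0.0632). For 240 h these values were 0.83 and 0.31 (adjusted p = 0.0881). Without a minimum the adjusted p-values were 0.132 and 0.174. With limma voom on the recovered whole reads it was called at both, with 0.70 at 72 h (SE 0.27, 95% interval 0.15 to 1.25, adjusted p = 0.0303) and 0.99 at 240 h (SE 0.29, interval 0.37 to 1.60, adjusted p = 0.0117). At 48 h the log2 change on the reads was 0.06 (interval -0.62 to 0.73, adjusted p = 0.927), and -0.06 without 48 h kd replicate 2. The calls on the reads depended on the libraries and the fit. In 1 fit of all 15 libraries the 72 h call was lost (0.70, limma adjusted p = 0.0528). At 72 h the call was lost in 4 of 6 fits with 1 library left out, those without 48 h ctrl replicate 2 or 3 or 72 h kd replicate 1 or 3 (0.49 to 0.70, adjusted p up to 0.157). At 240 h it was lost in 1 of 6, without 240 h ctrl replicate 1, the lowest of the controls, where the change was 0.56 (adjusted p = 0.0952) on the reads and 0.49 on log2 FPKM. Without 48 h ctrl replicate 1, the highest of the controls, the 72 h change on the reads was 1.03 (limma voom adjusted p = 0.00681).

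Pmp22 moved in both directions. Its FPKM was 0.0310, 0.0236 and 0.0202 in 48 h ctrl, 0.00852, 0.0112 and 0.00886 in 48 h kd. The 72 h kd libraries had 0.0102, 0.0106 and 0.0148. These values rest on few reads per library, namely 7 to 13 (48 h ctrl), 3 to 4 (48 h kd) and 4 to 6 (72 h kd). At 240 h it was 0.0132, 0.0372 and 0.0281 FPKM in ctrl (5 to 14 reads) and 0.0993, 0.0834 and 0.132 in kd (37 to 55 reads). The early kd libraries lay below every 48 h ctrl library, and the 240 h kd libraries lay above every other library of the series.

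Against 240 h ctrl the Pmp22 level in 240 h kd was 4.01-fold, a log2 change of 2.03 on the reads (SE 0.35, interval 1.31 to 2.76, limma adjusted p = 1.11e-04). The rise was also called with a replicate number block, under each scaling, and with any 1 library left out, where it ranged from 1.63 to 2.33. The early falls were near the threshold. With the replicate number as a block, although the numbers do not pair the libraries, both missed it (limma adjusted p = 0.0681 at 48 h and 0.0525 at 72 h). Without the block the log2 change was -1.27 at 48 h (SE 0.42, interval -2.18 to -0.36, adjusted p = 0.0487) and -1.01 at 72 h (SE 0.42, interval -1.89 to -0.14, adjusted p = 0.0464). At 48 h the call was lost with any 1 of the 6 libraries left out, 48 h kd replicate 2 included (-1.38, adjusted p = 0.0736), and at 72 h with each of 5 of the 6, all but 48 h ctrl replicate 3. Over these fits the adjusted p-values ran from 0.0614 to 0.145 at 48 h and from 0.0388 to 0.159 at 72 h.

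The knockdown effect on Pmp22 differed between the times. The effect at 240 h minus that at 48 h was 3.30 on the log2 scale (SE 0.61, interval 2.03 to 4.57, limma voom adjusted p = 7.11e-04), and with any 1 of the 12 libraries left out it lay between 2.90 and 3.60. For Emp2 the same difference was 0.07 (interval -0.45 to 0.58, adjusted p = 0.893) and for Emp3 0.93 (interval -0.03 to 1.90, adjusted p = 0.186). With 1 library left out the Emp3 difference ran from 0.51 to 1.16, and 0 of 12 such fits called it. Over all 19972 genes in this fit, 8.97% were called, and Pmp22 was the 1 of the 3 relatives called.

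Markers of other cell types were compared between 240 h kd and 240 h ctrl, as a description. The share of all genes whose kd libraries all lay above or all below the ctrl libraries was not counted. The marker counts below therefore have no share over all genes to be set against. Of 8 fibroblast markers, 4 were higher in all kd than in all ctrl libraries and 1 lower (Thy1), and their summed level was 20.7 to 25.0 RPM with and 9.14 to 9.99 without doxycycline at that time. Most of that sum was Col1a1, the main chain of type I collagen, at 13.8 to 17.6 RPM in 240 h kd, while the fibroblast genes Dcn and Lum had 6 and 4 reads in all 15 libraries together. Postn, 1 of the 4 higher ones, had 8 reads in all 15 libraries. Of 6 primitive endoderm markers, 4 were higher and 0 lower, with a summed level of 17.8 to 20.8 against 10.4 to 12.2. Among the 4, Gata4 was close, at 4.10 to 4.99 RPM in kd and 3.41 to 4.02 in ctrl. Of 6 trophoblast markers, 4 were higher and 1 lower (Eomes), with 138 to 141 against 79.3 to 86.3. The trophoblast sum was mostly Tfap2c, which was highest in 72 h kd (147 to 152 RPM) and had 101 to 106 in 240 h kd. The other raised trophoblast markers were highest in 240 h kd, where Pmp22 was highest too. Cdx2 had 0.156 to 0.301 RPM at 72 h kd and 2.06 to 2.21 at 240 h kd, Hand1 had 0.0809 to 0.547 and 3.03 to 3.86, and Krt8 had 9.07 to 10.9 and 24.3 to 27.8. Of 5 Schwann cell markers, 1 was higher (Sox10) and 1 lower (Prx), their sum was 30.5 to 35.8 against 36.0 to 40.2, and Egr2, which drives myelination, had 2 reads in all libraries. Of 5 epithelial markers, 0 were higher and 3 lower, and their sum was 355 to 369 RPM against 716 to 756. Of the 6 stem cell markers, 1 was higher and 4 lower, among them Esrrb at 468 to 479 against 805 to 838 RPM, and their sum was 3854 to 3941 against 4340 to 4703. The part of these cell types in the Pmp22 result was not tested, and in bulk RNA a change in the number of cells of a type and a change per cell cannot be told apart.

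Emp2, which is linked to integrin and caveolin trafficking, was lower or higher by less than the other relatives at 240 h and 72 h. Its FPKM was 0.122, 0.132 and 0.143 in 48 h ctrl (47 to 54 reads), 0.0889, 0.106 and 0.0729 in 48 h kd (26 to 40 reads) and 0.145, 0.163 and 0.150 in 72 h kd (60 to 65 reads). At 240 h it was 0.120, 0.129 and 0.138 in ctrl (48 to 57 reads) and 0.0824, 0.0877 and 0.105 in kd (35 to 46 reads). The kd libraries lay below their controls at 48 h and 240 h and above them at 72 h, each time without overlap.

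In none of these comparisons was Emp2 called. The log2 change on the reads was -0.56 at 48 h with an SE of 0.19 (adjusted p = 0.0545), 0.21 at 72 h (SE 0.16, interval -0.11 to 0.54, adjusted p = 0.263) and, at 240 h, -0.49 with an SE of 0.18 (adjusted p = 0.0341). The last value passed the p-value threshold but not the size of 0.58. Without 48 h kd replicate 2 the 48 h change was -0.69 (adjusted p = 0.0271), and without 240 h kd replicate 3 the 240 h change was -0.59 (adjusted p = 0.0378), both of which are calls.

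The direct comparison of 72 h kd with 48 h kd, which needs no control, called a rise for Emp2 of 0.77 (SE 0.18, interval 0.38 to 1.17, limma voom adjusted p = 0.00489), and Emp2 remained called with any 1 library left out. For Emp3 the change between these kd times was 0.64 (SE 0.24, interval 0.14 to 1.15, adjusted p = 0.0464) on the reads and 0.56 on log2 FPKM, where it missed the size threshold. The call on the reads was lost in 5 of 6 fits with 1 library left out, all but the one without 48 h kd replicate 2 (0.76, adjusted p = 0.0407). It was also lost with the replicate block (limma adjusted p = 0.0539), with centring on the median (0.0637) and in 1 fit of all libraries (0.0860). The value for Pmp22 was 0.26 (interval -0.73 to 1.24, adjusted p = 0.698). The called share was 12.4% of all 19459 genes in this comparison.

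**Figure D2:**
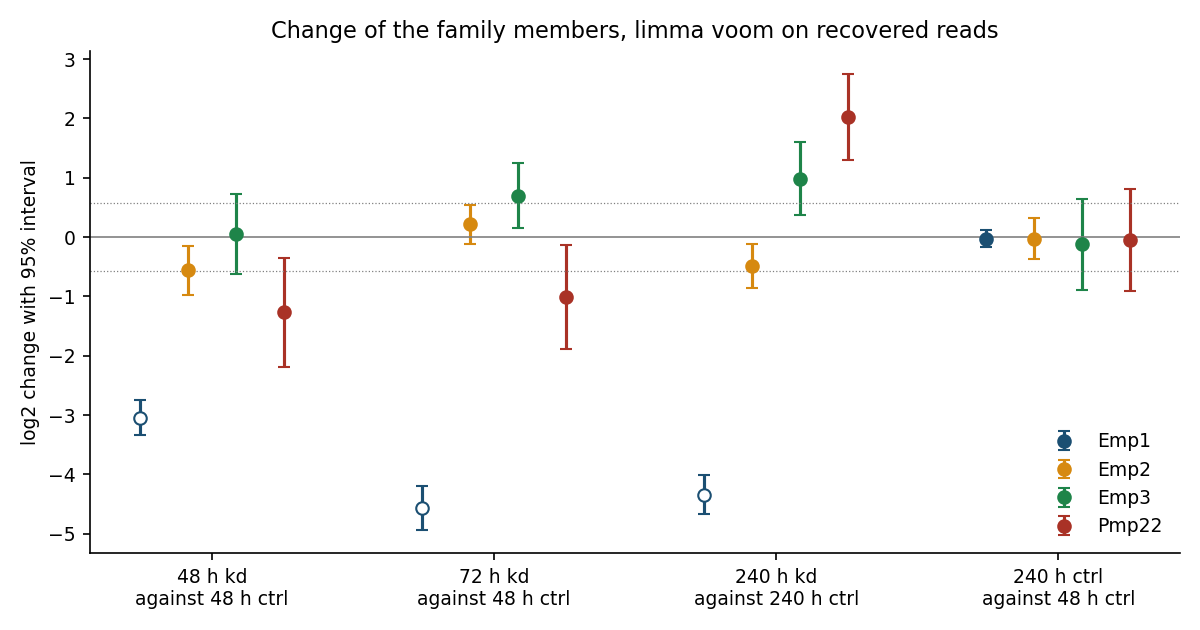
Log2 change of each gene from limma voom on the recovered reads, with its 95% interval, in the 3 knockdown comparisons and between the controls, dotted lines at 0.58 and -0.58. Open points are the knockdown values of Emp1, by which it was chosen. Emp3 and Pmp22 lie above 0 at 240 h, Emp2 below it, and none of the 4 was called between the untreated groups.

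On the reads, where all 3 relatives could be tested at every time, 1 of the 3 was called at 48 h (Pmp22, lower), 2 at 72 h (Emp3 higher, Pmp22 lower) and 2 at 240 h (Emp3 and Pmp22, both higher). Over all genes in these fits 8.31%, 22.5% and 17.8% were called. Between the untreated groups 0 of the 3 relatives were called by limma voom, and 0 had an unadjusted p-value under 0.05, against 1.09% of all genes called. The test fixed in the design used log2 FPKM and a minimum mean of 0.5 FPKM per gene. There the relatives were mostly under the minimum: none was tested at 48 h (3.99% of all genes called), and Emp3 alone at 72 h (13.5%) and 240 h (8.91%), where it passed the minimum only through its kd libraries and was not called.

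The sums of the family were then set against each other, as a description. On the scale per exonic kilobase the 4 genes summed to 10.9 ± 0.180 (48 h ctrl) and 10.6 ± 0.568 (240 h ctrl), and to 2.94 ± 0.437, 3.34 ± 0.0982 and 4.67 ± 0.486 in kd at 48 h, 72 h and 240 h (SD, n = 3). Emp1 made up a mean of 79.5% of the sum in 48 h ctrl and 79.6% in 240 h ctrl, but 35.6%, 10.7% and 8.99% at the kd times. Emp3 was the most abundant member per exonic kilobase on doxycycline, with 48.9%, 67.6% and 54.7%. The 48 h kd libraries other than replicate 2 summed to 3.14 and 2.43. Pmp22 made up 29.1% of the sum in 240 h kd and between 2.99% and 4.62% in the other groups.

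The 3 relatives together had 2.22 ± 0.597 without and 1.89 ± 0.322 with doxycycline at 48 h, and 2.98 ± 0.111 at 72 h. At 240 h they had 2.19 ± 0.777 without and 4.25 ± 0.460 with it. The kd mean minus the ctrl mean was -0.327 at 48 h, 0.762 at 72 h and 2.06 at 240 h. Of these, the first rests on 48 h ctrl replicate 1, in which the relatives summed to 2.90, against 1.98 and 1.78 in the other controls. Without it the difference was 0.0134. For Emp1 the same difference was -7.59, -8.28 and -8.02. Relative to that loss the relatives thus made up -4.30%, 9.20% and 25.7% (-7.34% to 0.168%, 6.70% to 12.7% and 20.5% to 28.5% with 1 library left out), and the family as a whole remained at 27.1%, 30.7% and 43.9% of its control sum. Counted as reads without regard to length, the relatives made up -4.03%, 2.41% and 5.20% of the Emp1 loss, and the family remained at 18.9% at 48 h and 20.1% at 240 h, with the 72 h value below both. On that scale the largest mean share of the family in kd was Emp1 at 48 h (56.8%), Emp2 at 72 h (50.1%) and Pmp22 at 240 h (28.0%). In 240 h kd replicate 2, however, Emp3 (29.3%) and Emp2 (27.3%) were above Pmp22 (24.7%). Per exonic kilobase the gain was carried by Emp3 and, at 240 h, by Pmp22. Emp2 lay below its control at 48 h and 240 h.

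**Figure D3:**
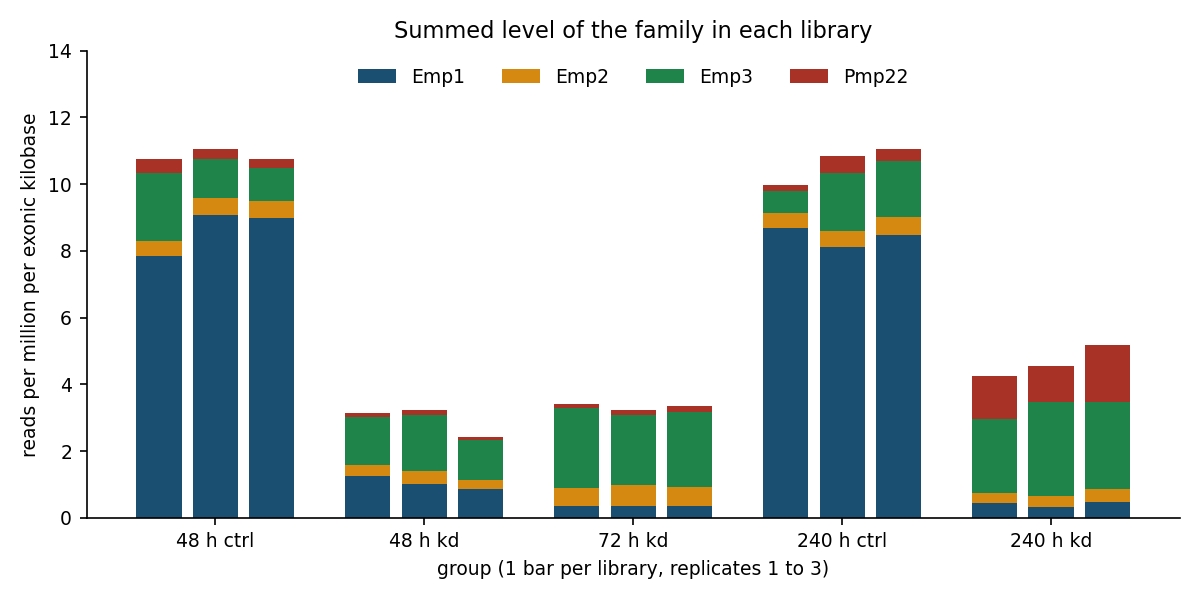
Summed level of the family in each library in RPM, divided by exonic kilobases, stacked by gene, with 1 bar per library. The ctrl bars are mostly Emp1, the kd bars reach at most 5.19 and hold more Emp3 than any other member, and Pmp22 becomes visible in the 3 bars of 240 h kd.

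Genes with the pattern most like that of Emp1 were sought by Pearson's r of log2(FPKM + 0.1) over the 15 libraries among 9157 genes, as a description, since the libraries of a group share their condition. The 5 highest were Acsl3, an enzyme that activates long-chain fatty acids (r = 0.983), Slc16a3, a lactate exporter (0.983), Actn1, an actin crosslinker (0.981), Zfp59 (0.981) and Med28, a Mediator subunit (0.979). The FPKM of Slc16a3 was 7.74 ± 0.221 in 48 h ctrl, against 3.09 ± 0.290 (48 h kd) and 2.85 ± 0.185 (72 h kd). After 240 h it was 7.82 ± 0.128 without and 2.58 ± 0.223 with doxycycline. None of the 5 had as large a change as Emp1. By Spearman's rho, which uses ranks only, they stood at places 61, 124, 154, 231 and 143. The 5 lowest were Sox1ot (-0.992), Sox1 (-0.992), Fgfr1 (-0.991), Npr1 (-0.986) and Plk3 (-0.984). Their places by rho, from the low end, lay between 54 and 297. The Sox1ot span contains Sox1, a transcription factor of neural progenitors, so both values come from the same reads. Npr1, a natriuretic peptide receptor, had 1.28 ± 0.0973 FPKM in 48 h ctrl and 4.18 ± 0.0638 in 72 h kd.

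The relatives had other companions. For Pmp22 they were Vim, the mesenchymal filament protein vimentin (r = 0.958), Tcf7l1, a repressor in the Wnt pathway (0.957), and Aebp2, a cofactor of the polycomb complex PRC2 (0.957). Vim was at 13.9 ± 0.643 FPKM in 240 h ctrl and 37.9 ± 1.34 in 240 h kd, and Aebp2 at 1.92 ± 0.132 and 4.19 ± 0.133. Vim was at 12.9 FPKM in 48 h ctrl, with 11.5 (48 h kd) and 10.9 (72 h kd) on doxycycline. For Emp2 they were Des (0.938), Phf11d (0.934) and Gpbp1l1 (0.921), and for Emp3 Plekho2 (0.849), Rchy1 (0.835) and Gpx4-ps2 (0.830), a pseudogene whose reads may belong to its parent gene. By Spearman's rho the 3 genes named for Pmp22 stood at places 90, 21 and 90. Those for Emp2 stood at 8, 1 and 2, and those for Emp3 at 1, 9 and 51. Outside 240 h kd every Pmp22 value was under the pseudocount of 0.1, so differences among those libraries count little in its r. Among the members themselves Emp1 and Emp3 had r = -0.66, and Emp1 and Emp2 0.28.

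The wider superfamily did not move one way. Among 25 other tetraspan genes of the PMP22-claudin group, 3 could be tested on log2 FPKM and 1 was called at 48 h, 2 at 72 h and 1 at 240 h, all lower, when 3.99%, 13.5% and 8.91% of all genes were called. These were Perp, a p53 target of desmosomes, and Tmem47. Perp fell by 0.91 at 48 h (SE 0.05, limma adjusted p = 0.00115) and fell by 1.50 at 72 h (SE 0.05, adjusted p = 3.22e-05). Tmem47 had a log2 change of -0.66 at 72 h (adjusted p = 8.08e-05) and -1.04 at 240 h (adjusted p = 1.69e-04). Voom, with a minimum mean of 10 reads per gene, reached 10 or 11 of the list. It called 2 of 10 at 48 h (1 higher), 7 of 11 at 72 h (4 higher) and 3 of 10 at 240 h (1 higher), with 9.22%, 22.6% and 18.0% of all genes called. Of the 7, Cacng6 passed that minimum only through 72 h kd. The median log2 change of the list on the reads was 0.14, 0.44 and -0.11, against 0.01 over all genes at each of these times.

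The claudins called on log2 FPKM were lower at 48 h and 240 h, and those called at 72 h were other genes, which were higher. Of 7 tested on log2 FPKM, 2 were called at 48 h, both lower, 2 at 72 h, both higher, and 3 at 240 h, all lower, with 3.99%, 13.5% and 8.91% of all genes called. Cldn6, a claudin of pluripotent cells, changed by -0.96 at 48 h and -1.28 at 240 h (adjusted p = 0.00290 and 3.70e-04), and Cldn7 by -1.02 and -1.29 (adjusted p = 0.00235 and 1.82e-04). Cldn6 and Cldn7 were lower at 72 h too, at -0.478 and -0.577 (limma adjusted p = 8.21e-04 and 0.00420), under the size threshold. Cldn4 was lower at 240 h, at -1.26 (SE 0.10, adjusted p = 5.89e-04), but had 0.568 at 72 h, also under the size threshold. Cldn3 and Cldn9 rose at 72 h, by 1.06 and 1.08 on the log2 scale, with mean FPKM of 3.09 (ctrl) and 6.55 (kd) for Cldn3 and of 0.805 and 1.81 for Cldn9. The median of the 7 was -0.15, 0.13 and -0.51 at 48 h, 72 h and 240 h, and that over all genes tested was within 0.01 of 0 at each time. On the reads 2 of 8 were called at 48 h and 4 of 8 at 240 h, all lower, and 4 of 8 at 72 h, 3 of them higher, with 9.22% (48 h), 22.6% (72 h) and 18.0% (240 h) of all genes called. The lower one at 72 h was Cldn7 (-0.581). Cldn19, among those called at 72 h and 240 h, passed the minimum of 10 reads only through the group in which it was higher.

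Of 16 reported partners and downstream genes of the family, among them integrins, caveolins and Src, 0 of 8 were called at 48 h by limma on log2 FPKM and 0 of 14 by limma voom. On log2 FPKM 1 of 9 was called at 72 h and 1 of 8 at 240 h, against 13.5% and 8.91% of all genes. Voom called 2 of 14 at each of these times, 1 of them lower, against 22.6% and 18.0% of all genes. Flot1, a lipid raft protein, rose by 0.73 at 72 h (SE 0.05, adjusted p = 1.44e-04), and Cavin1, a coat protein of caveolae, rose by 0.68 at 240 h (SE 0.10, adjusted p = 0.00514). The lower ones on the reads were Cd44, the hyaluronan receptor, at 72 h (-0.70, adjusted p = 0.00577) and Ocln, the tight junction protein occludin, at 240 h (-0.70, adjusted p = 3.89e-05). Itgb1, the integrin chain reported as a partner of EMP2, had log2 changes of 0.16, 0.14 and 0.44 and stayed under the size threshold. The medians of the tested partners were -0.03, 0.14 and 0.08.

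Genes of peripheral myelin, the setting in which PMP22 is best known, were not called at 240 h on log2 FPKM (0 of 4, against 8.91% of all genes), and voom called 1 of 8 (18.0% of all genes), Sox10 (1.02, adjusted p = 0.0169), a transcription factor of Schwann cells, which passed the minimum of 10 reads only through kd (means of 7.33 and 17.3 reads). At 72 h, when Pmp22 was low, 2 of 5 were called on log2 FPKM (13.5% of all genes) and 3 of 8 by voom (22.6%), all higher. Both calls on log2 FPKM were of genes that reached 0.5 FPKM only through 72 h kd. On the reads, where both groups were above the minimum, Gjb1, a gap junction protein, rose by 1.24 (SE 0.18, limma voom adjusted p = 1.71e-06) and Sox10 by 1.44 (SE 0.28, adjusted p = 8.99e-05). At 48 h 0 of 3 were called by limma on log2 FPKM and 1 of 7 by voom (9.22% of all genes), which was Mbp, at -0.85.

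Tetraspanins, a separate family of membrane proteins with the same number of passes, served as the last list. On log2 FPKM 0 of 11 were called at 48 h, 4 of 11 at 72 h, all higher, and 4 of 12 at 240 h, 3 of them higher, where 3.99%, 13.5% and 8.91% of all genes were called. Cd63, a protein of late endosomes and exosomes, rose by 1.34 at 72 h (SE 0.04, limma adjusted p = 3.30e-05) and by 1.29 at 240 h (SE 0.05, adjusted p = 7.03e-05). Tspan17 rose by 1.48 and 0.78, Cd151 by 0.74 and Tspan14 by 0.72 at 72 h. Cd37 reached 0.5 FPKM at 240 h only through kd (means of 0.272 and 0.752 FPKM), and on the reads it rose by 1.45 (SE 0.22, limma voom adjusted p = 3.00e-05). Cd9, known from gamete fusion, was lower at 240 h (-0.59, adjusted p = 5.89e-04). Voom called 2 of 18 at 48 h, both lower, and 8 of 20 at 72 h (7 higher) and at 240 h (5 higher), against 9.22%, 22.6% and 18.0% of all genes. Cd82 at both times and Tspan18 at 72 h passed the minimum of 10 reads only through kd. The medians were 0.08, 0.27 and 0.29.

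**Figure D4:**
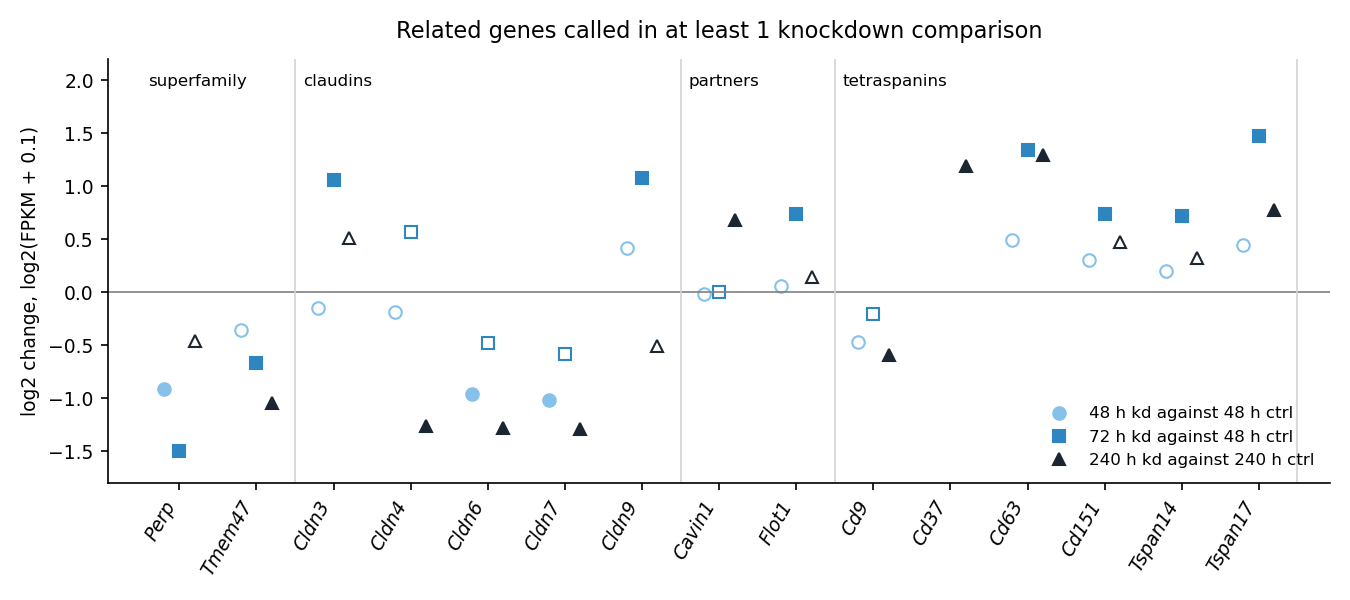
Log2 change on log2(FPKM + 0.1) of the genes from the superfamily, claudin, partner and tetraspanin lists that were called in at least 1 knockdown comparison, filled where called, with circles for 48 h, squares for 72 h and triangles for 240 h. Claudins 4, 6 and 7 lie below 0 at 240 h, while Cd63 and Tspan17 lie above it at both later times.

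The surroundings of the 4 genes were looked at within 250 kb. Near Emp1, 14 genes are listed, of which 1 could be tested on log2 FPKM and was not called, and 3 on the reads at 48 h and 72 h. The reads gave calls for 2 of 3 (48 h), 0 of 3 (72 h) and 2 of 2 genes (240 h) by limma voom, with 9.22%, 22.6% and 18.0% of all genes called. Hebp1, a heme-binding protein which lies upstream of Emp1, had a log2 change of -0.79 at 48 h (SE 0.12, limma voom adjusted p = 5.21e-04) and, with an SE of 0.13, -1.27 at 240 h (adjusted p = 4.74e-07), but 0.02 at 72 h. Fam234b, also upstream, had log2 changes of -0.81, -0.48 and -1.05 at 48 h, 72 h and 240 h (adjusted p = 2.27e-04, 2.69e-04 and 2.94e-07), of which the first and the last are calls. These genes overlap at their starts on opposite strands, and strand was not used in the counting. Near Emp2, 1 of 7 genes was called on the reads at each time. This was Rpl39l, a ribosomal protein gene whose reads may be shared with near-identical copies, with 0.78, 1.24 and 1.48 (adjusted p = 0.0129, 5.85e-07 and 6.61e-08). Near Emp3, 19 genes could be tested on the reads, and the called numbers were 3, 3 and 2 in time order. Tmem143, 610 bases from Emp3, was called at 72 h (0.84, adjusted p = 6.13e-09) and 240 h (0.61, adjusted p = 1.11e-04). The others were Sec1 (0.67), Ntn5 (0.86) and Sult2b1 (-0.73) at 48 h, Ntn5 (0.90) and Lmtk3 (-0.65) at 72 h, and Abcc8 (0.74) at 240 h. On log2 FPKM 1 of 14 genes near Emp3 was called at 72 h (Tmem143, 0.75) and 0 of 13 at the other times by limma, with 3.99%, 13.5% and 8.91% of all genes called at 48 h, 72 h and 240 h. Near Pmp22 0 of 2 genes were called by limma on log2 FPKM at any knockdown time and 0 of 1 by voom.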

How the data were processed

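Total RNA was sequenced as single reads (Illumina). The submitters' processing notes name STAR 2.7.0c, DESeq2 1.30.0, R 4.0.3 and the builds mm10 and GRCm38.p6. The authors deposited FPKM per gene and library, without regard to strand. Multiplying FPKM by the gene span gave whole reads for 100% of values (within 0.001). Gene models were from GENCODE M21 (96.5% of IDs matched) and promoter sequences from RefSeq. Members and gene lists were chosen with earlier results of these data known.

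Log2(FPKM + 0.1) was tested with limma 3.58.1 (R 4.3.3, mean of at least 0.5 FPKM, Benjamini-Hochberg over all genes tested), on the libraries compared only. Since this minimum left out Emp2 and Pmp22, relatives are given from limma voom on recovered reads with a mean of at least 3 reads, chosen after the values were seen, and lists from voom with at least 10. A call needs an adjusted p-value under 0.05 and a log2 change above 0.58 in size. Scripts were tested on simulated data, for log2 FPKM and for voom with at least 10 reads, but not with the minimum of 3 reads used for the relatives. The named list genes are those called on log2 FPKM, up to 8 per list. The result for 1 gene of the myelin list is not reported here. Mbp, Sox10, Itgb1, Cd44, Ocln and the neighbours were named after their values were seen. Counts of 3 to 14 reads limit the precision for Pmp22. Alternatives were other pseudocounts, minimums, scalings, a replicate block, 1 fit of all libraries and each library left out.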

Additional observations from a re-analysis of the deposited data

Results flagged for a closer look

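Pmp22 stood out because its response to the knockdown was not the same at 240 h as at 48 h, by a direct test of the 2 times against each other. On the recovered reads the 240 h response exceeded that at 48 h by 3.30 log2 units (SE 0.61, limma voom adjusted p = 7.11e-04). All 3 libraries of 240 h kd lay above all 240 h ctrl libraries, and all 3 of 48 h kd lay below all 48 h ctrl libraries. On log2(FPKM + 0.1) without a minimum the value was 0.89 (limma adjusted p = 0.00441). The 48 h kd libraries had only 3 to 4 reads of Pmp22 each.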

How the results depend on the processing

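Of 245 alternatives for the relatives, 195 kept the direction and the side of the threshold, 20 lost a call, 14 gained one and 16 changed sign. Of all 340 for the members 18 changed sign, in each of which neither value was a call. The size of the Emp1 changes moved with the scale. With a pseudocount of 1 they were -1.42, -1.66 and -1.61 at 48 h, 72 h and 240 h, and -0.19 for 240 h minus 48 h. With a pseudocount of 0.01 they were -3.02, -4.47, -4.24 and -1.22, rescaled to TPM -3.05, -4.41, -4.22 and -1.18, and on recovered reads (minimum 10 or 3) -3.04, -4.57, -4.34 and -1.30. Between the kd times Emp1 had -0.98 on log2 FPKM without a minimum.

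Emp2 gained a call at 48 h when rescaled to TPM (-0.60) and lost that between the kd times on log2 FPKM without a minimum (0.42). Pmp22 lost its early calls in 1 fit of all libraries (-1.27 and -1.01) and on log2 FPKM without a minimum (-0.19 and -0.16), and at 72 h rescaled to TPM (-0.99) or against 240 h ctrl (-0.96). Emp3 gained calls on recovered reads at 72 h (0.70) and 240 h (0.99), at 240 h also in 1 fit of all libraries (0.83), and between the kd times with a pseudocount of 0.01 (0.65), as TPM (0.71) and on reads (0.64). On the reads Emp3 lost its call at 72 h in 1 fit of all libraries, and that between the kd times there, with the replicate block and with centring. The gain of the relatives was 5.20% of the Emp1 loss at 240 h without length. At 48 h, with 1 library left out, the gain per exonic kilobase lay between -7.34% and 0.168% (above 0 only without 48 h ctrl replicate 1). Without length it lay between -4.97% and -3.16% in these fits.

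With 1 library left out, Emp2 lay between -0.69 and -0.43 at 48 h and between -0.59 and -0.43 at 240 h, Pmp22 between -1.40 and -1.10 at 48 h and between -1.17 and -0.84 at 72 h, and Emp3 between -0.15 and 0.39 at 48 h, between 0.45 and 0.88 at 72 h and between 0.45 and 0.66 between the kd times. Emp2 lay between -0.064 and 0.20 for 240 h minus 48 h. Between the untreated groups the ranges were -0.095 to 0.0061 (Emp1), -0.091 to 0.026 (Emp2), -0.35 to 0.30 (Emp3) and -0.34 to 0.35 (Pmp22). Signs also changed there as TPM (Emp1 0.080, Emp2 0.082, Pmp22 0.064), with centring (Emp2 0.0076) and for Pmp22 with the replicate block (0.028) and on log2 FPKM without a minimum (0.010). The replicate numbers do not pair the libraries (correlations of deviations -0.16 to 0.14, highest with the own number in 9 of 30). With the replicate block Pmp22 lost its calls at 48 h (-1.27) and 72 h (-1.01), and the block changed no other call among 24 member results, with Emp3 on log2 FPKM where it could be tested there. The causes were not tested.

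Genes called on log2 FPKM numbered 456, 1548 and 1016 at 48 h, 72 h and 240 h, against 208, 745 and 541 with a pseudocount of 1, 208, 768 and 453 with a minimum of 2 FPKM, and 1485, 3642 and 2998 on recovered reads. Without a minimum they were 2500 at 72 h and 1768 at 240 h, and with the block 285 at 48 h. Between the untreated groups 215 were called on recovered reads with a minimum of 3, against 82 without 48 h ctrl replicate 3 and 402 with the block. Pmp22 rests on 3 to 14 reads per library outside 240 h kd.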
